A study of Mus musculus with 55 samples.

Results

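The AMPA receptor is the ion channel that carries most fast excitatory transmission in the hippocampus. Each channel is a tetramer of the pore subunits GluA1 to GluA4, encoded by Gria1 to Gria4, and it travels to the synapse in company with auxiliary proteins that set its export, its synaptic anchoring and the speed of its gating. In the hippocampus these auxiliary proteins include the transmembrane AMPA receptor regulatory proteins (TARPs) Cacng2, Cacng3 and Cacng8, the cornichons Cnih2 and Cnih3, the CKAMP protein Shisa9 and the claudin-like protein Gsg1l. Cnih3 is the gene deleted in the mice studied here. The 10 genes described are therefore the 4 pore subunits and 6 auxiliary partners, namely Gria1, Gria2, Gria3, Gria4, Cnih2, Cacng2, Cacng3, Cacng8, Shisa9 and Gsg1l. They were chosen by name as partners of Cnih3, out of 55487 genes in the count table. All 10 were among the 16168 genes tested, that is, genes whose CPM (counts scaled by the library total) exceeded 1 in at least 10 libraries.

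RNA of the dorsal hippocampus was sequenced from 55 mice of 10.9 to 23.7 weeks, with 1 library per mouse. Wild-type (WT) mice comprised 5 males, 4 metestrus, 6 diestrus, 5 proestrus and 7 estrus females. Cnih3 knock-out (KO) mice comprised 7 males, 5 metestrus, 6 diestrus, 4 proestrus and 6 estrus females. All mice had a C57/BL6j background, and stages were read from vaginal cytology. The KO mice carry an allele that lacks exon 4 of Cnih3, from a single line. All 28 KO mice and 11 of the 27 WT mice came from matings within the Cnih3 line, and the other 16 WT mice came from B6 parents on both sides. Library totals ranged from 25881295 to 63547098 counts with a median of 53384170. The members with the fewest counts, Gsg1l and Cacng8, had at least 199 and 211 counts in every library. Every marker on the lists for excitatory neurons, CA1 and CA3 pyramidal cells, dentate granule cells and interneurons was detected in all 55 libraries. The tissue is bulk RNA, so fewer cells of a type and less RNA per cell cannot be told apart.

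2 sets of sequence are shown because the transcript results and the mutation turn on them. Gria2 transcripts carry 1 of 2 alternative exons, flop or flip, that encode part of the ligand-binding domain next to the channel and alter its kinetics. Both exons lie on the minus strand of chromosome 3 (GRCm38), flop at chr3:80691320-80691434 in transcript Gria2-201 and flip at chr3:80690404-80690518 in transcript Gria2-202. They have the same length and are 68.7% identical. The 36 bases that differ are in capitals.

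Gria2-201 flop exon: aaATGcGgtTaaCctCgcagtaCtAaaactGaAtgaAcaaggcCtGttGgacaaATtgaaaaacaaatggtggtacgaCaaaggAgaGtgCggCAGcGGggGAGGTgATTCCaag
Gria2-202 flip exon: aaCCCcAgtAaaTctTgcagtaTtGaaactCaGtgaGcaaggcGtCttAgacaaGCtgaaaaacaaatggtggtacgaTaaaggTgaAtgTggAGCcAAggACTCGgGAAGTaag

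The encoded proteins of both transcripts have 883 residues and differ at 9 of them. The 2 transcripts also end in different last exons, which start at 80681450 in Gria2-201 and at 80687795 in Gria2-202. The deleted exon 4 of Cnih3 lies on the plus strand at chr1:181449970-181450082. It has 113 bases, which leaves 2 bases over after whole codons, so that its loss shifts the reading frame.

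Cnih3 exon 4: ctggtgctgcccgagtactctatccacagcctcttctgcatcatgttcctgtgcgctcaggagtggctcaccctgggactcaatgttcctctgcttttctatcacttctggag

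7 libraries stood apart from the rest for Gria2 and Gria3, and they have to be described first. They were the diestrus mice under 14 weeks, WT diestrus replicates 3, 4 and 5 (12.29, 12.29 and 11.71 weeks) and KO diestrus replicates 2, 3, 4 and 5 (13.86, 11, 10.86 and 11 weeks). All 7 came from matings within the Cnih3 line. Their Gria2 level was 314.9 to 450.0 CPM, whereas the 5 diestrus mice of 14 weeks or more had 601.5 to 729.8 CPM. The 10 mice under 14 weeks in other groups had 413.7 to 711.6 CPM, and of all 48 other libraries 1 lay below the highest of the 7, a WT male of 12 weeks with 413.7 CPM. For Gria3 none of the 48 other libraries lay below the highest of the 7, which had 62.9 to 89.1 CPM. Gria1 and Gria4 overlapped the rest. Of the 48 other libraries 4 lay below the highest of the 7 for Gria1 (547.5 CPM) and 5 for Gria4 (10.27 CPM). Young and older diestrus mice did not overlap for 4 of the 10 genes, Gria1 to Gria4, all lower in the young mice, and 9.51% of all tested genes were separated in that direction. The other 6 genes overlapped. Age therefore differed within both diestrus groups, and the diestrus results are given with and without these mice.

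**Figure D1:**
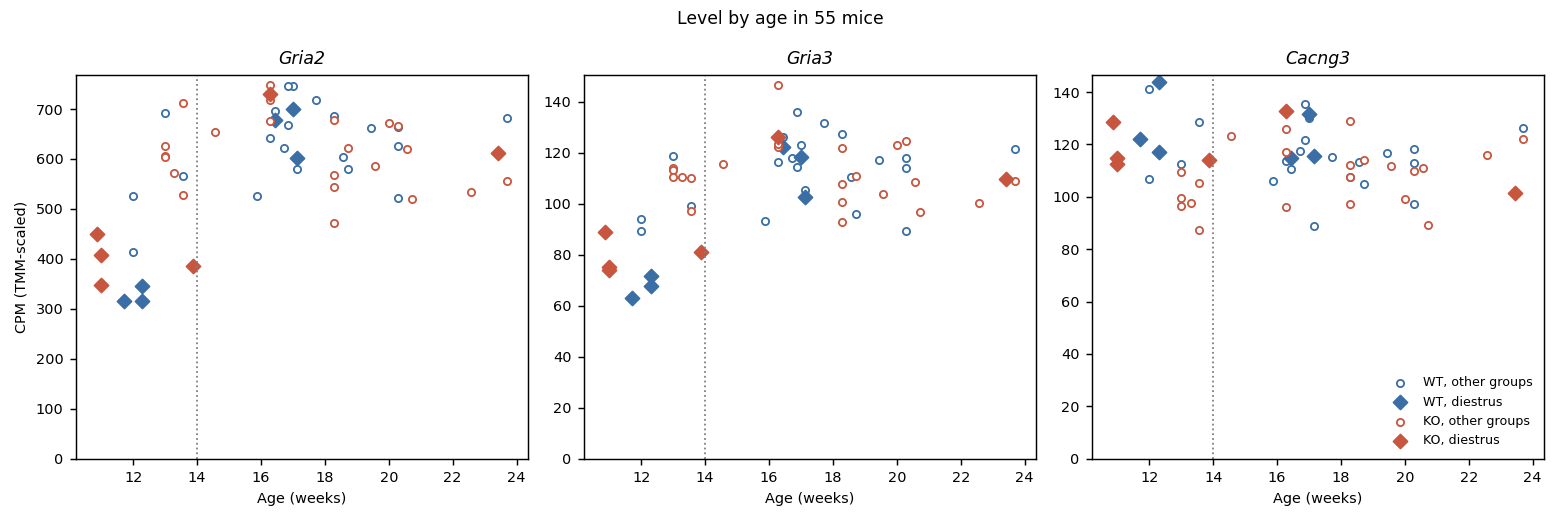
Level (CPM, TMM-scaled) of Gria2, Gria3 and Cacng3 in each of 55 mice against age in weeks, with diestrus mice as filled diamonds, all other mice as open circles, WT in blue and KO in red; the dotted line marks 14 weeks. The 7 diestrus mice left of the line hold the lowest Gria3 levels (62.9 to 89.1 CPM) and 7 of the 8 lowest Gria2 levels, while their Cacng3 levels (112.7 to 143.9 CPM) overlap those of the other mice (87.5 to 141.1 CPM) and include the highest of all.

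Other features moved with these 7 libraries. The summed level of 6 astrocyte markers was 2838 to 3225 CPM in them, 1662 to 2473 CPM in the older diestrus mice and 1682 to 3662 CPM in the other groups. The 3662 CPM was that of KO estrus replicate 1 (13 weeks). The next highest of the other groups was WT male replicate 1 (12 weeks), at 2552 CPM, below all 7. The 5 dentate granule markers summed to 122.4 to 147.6 CPM in young and 167.8 to 243.6 CPM in older WT diestrus mice, and to 138.6 to 159.3 and 173.7 to 198.3 CPM in KO. The 10 mature oligodendrocyte markers summed to 3332 to 3756 and 4681 to 5778 CPM in WT, and to 3224 to 4135 and 3527 to 5133 CPM in KO. The 5 excitatory neuron markers summed to 4298 to 4438 CPM in young WT diestrus mice, within the 3812 to 5548 CPM of the older ones, and to 4211 to 4983 CPM in young KO, above the 3717 and 3840 CPM of the older ones. No marker of these 4 lists was at 0 in any library. The 9 choroid plexus markers summed to 208.7 to 1139 CPM in young and 42.8 to 171.3 CPM in older WT diestrus mice, and to 130.6 to 669.6 and 25.5 to 50.8 CPM in KO, without overlap in either genotype. The other groups spanned 18.0 to 2211 CPM for these markers. Of these, Folr1, Aqp1, Cldn2 and Slc4a5 were at 0 in 2, 9, 1 and 3 of the 55 libraries, as was the pituitary marker Cga in 11. The 5 oligodendrocyte precursor markers summed to 27.5 to 33.3 and 35.4 to 43.3 CPM in WT and to 30.2 to 39.5 and 40.9 to 42.4 CPM in KO, again without overlap. Young KO diestrus mice also lay below older ones for 6 microglia markers (126.3 to 137.5 against 159.3 to 160.6 CPM), and young WT diestrus mice below older ones for the pituitary markers (4.64 to 22.6 against 23.6 to 76.2 CPM) and the thalamic markers (43.9 to 55.1 against 55.4 to 62.4 CPM). In the other genotype these 3 lists overlapped, and the CA1, CA3, interneuron and blood lists overlapped in both. In the comparison of diestrus with estrus, where 22.1% (WT) and 30.7% (KO) of all tested genes were called, markers called in WT and KO numbered 2 and 3 of 6 for astrocytes (2 higher in diestrus in each), 5 and 6 of 10 for mature oligodendrocytes, 3 and 2 of 5 for their precursors, and 2 and 2 of 6 for microglia. They numbered 3 and 3 of 5 for excitatory neurons (2 higher in each), 2 and 2 of 4 for CA1, 1 and 1 of 3 for CA3, 3 and 3 of 5 for dentate granule cells, and 1 and 2 of 7 for interneurons. The called markers not stated as higher were lower in diestrus, save 1 interneuron marker in KO. Of 9 choroid plexus and 3 thalamic markers 0 were called over the whole diestrus groups, and of the 3 tested pituitary and 3 blood markers 1 and 3 were lower in WT and 0 and 0 in KO. Totals of the 7 libraries (52307959 to 58932939 counts) were not low. The model's quality weights, which give less scattered libraries more influence, were 0.763 to 1.74 for the 7 and 0.327 to 0.935 for the older diestrus mice. The part of these features in the results was not tested.

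The 10 genes lie on 8 chromosomes of GRCm38, and each value counts reads over all annotated exons of a gene. The subunits are Gria1 (ENSMUSG00000020524) at chr11:57011387-57330244, Gria2 (ENSMUSG00000033981) at chr3:80681450-80802835, Gria3 (ENSMUSG00000001986) at chrX:41400854-41678601 and Gria4 (ENSMUSG00000025892) at chr9:4417896-4796234. The auxiliary genes are Cnih2 at chr19:5092868-5098521, Cacng2 at chr15:77991748-78120028, Cacng3 at chr7:122670492-122769393, Cacng8 at chr7:3390683-3415648, Shisa9 at chr16:11984113-12270902 and Gsg1l at chr7:125878420-126082411. Levels of the 10 genes spanned a wide range on a per-length scale (CPM per kb of exonic sequence, median of 55 libraries). Gria1 stood highest at 107, followed by Cnih2 at 78.2, Cacng3 at 40.9 and Gria2 at 39.4. Gria3 followed at 11.2, Cacng2 at 8.80, Cacng8 at 4.59, Shisa9 at 3.13, Gsg1l at 1.95 and Gria4 at 1.83. The scale depends on the length used. Gria2 was divided by 15.5 kb for all its annotated exons, whereas Gria2-201 has 10371 bases and Gria2-202 has 4026. Without scaling by length its median was 612.4 CPM, against 647.7 CPM for Gria1 and 107.0 CPM for Cnih2. The place of Gria2 relative to Gria1, Cnih2 and Cacng3 is therefore given for this scale only. Per length, Cacng3 exceeded Gria2 in 30 of 55 libraries and Gsg1l exceeded Gria4 in 33, so these neighbours could not be ordered. Gria3 exceeded Cacng2 in 45, Cacng8 exceeded Shisa9 in 44, Gria1 exceeded Cnih2 in 47 and Shisa9 exceeded Gsg1l in 52 libraries, and the 3 remaining neighbours kept their order in all 55. The most variable member was Cacng8, with an SD of 0.44 log2 CPM within groups, and the least variable were Cacng3 and Cacng2, with 0.15 and 0.16.

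**Figure D2:**
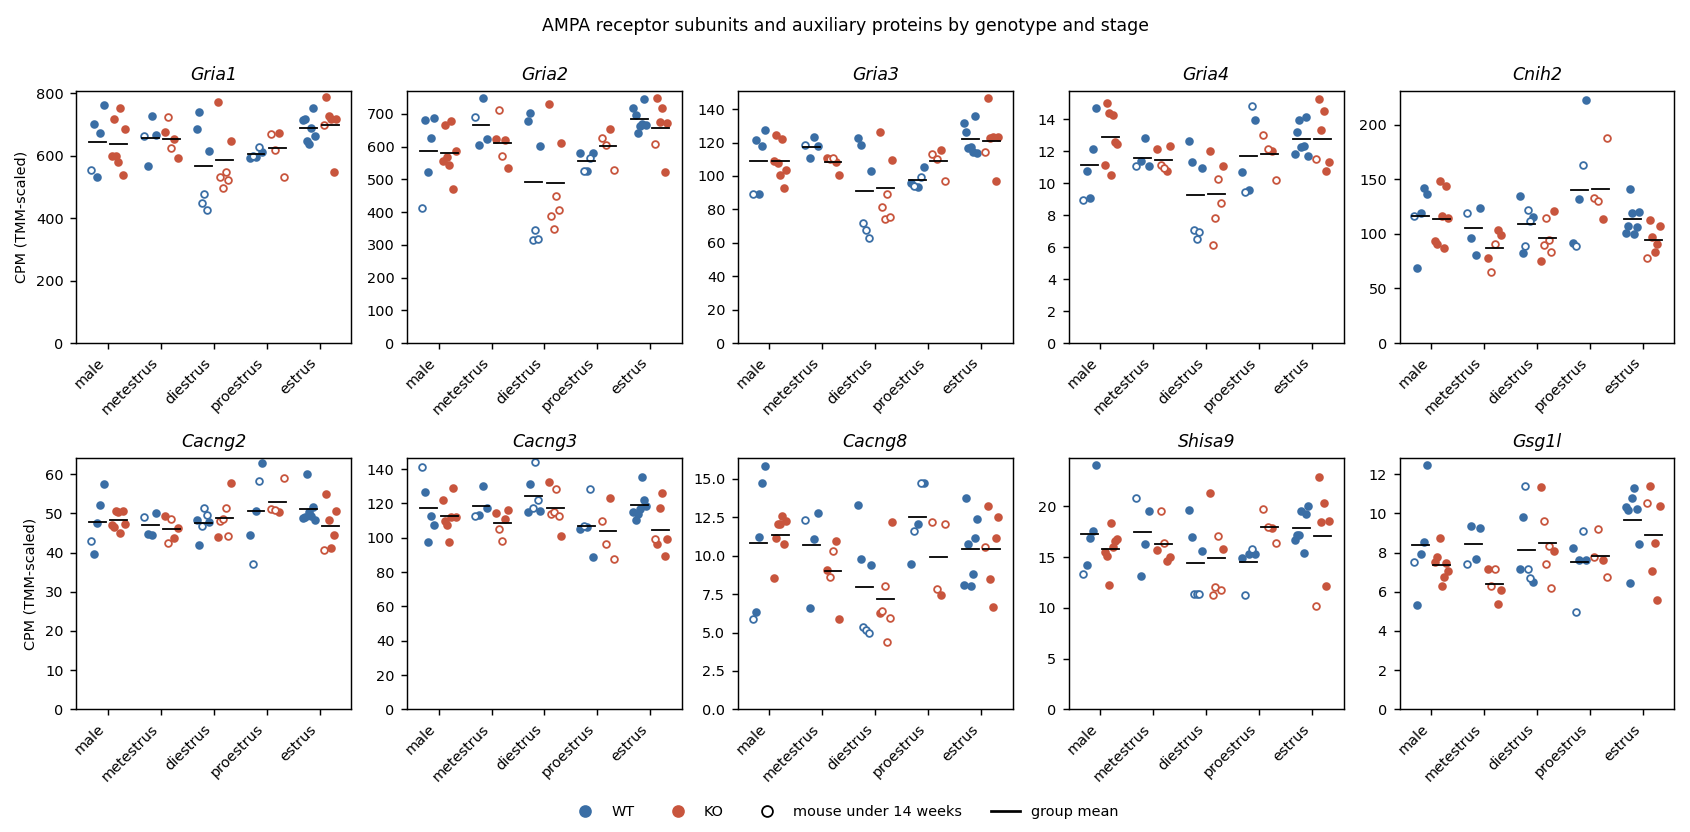
Level (CPM, TMM-scaled, each axis from 0) of the 10 genes in every mouse, by condition, with WT in blue, KO in red, open circles for mice under 14 weeks and bars for group means. In both diestrus groups the open circles lie apart from the filled ones for Gria1 to Gria4, whereas for Cnih2, Cacng2, Cacng3 and Gsg1l they are mixed with them.

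The targeted gene was compared first, as a check of the labels. Its group medians were 30.6 to 48.8 CPM in the WT groups and 29.3 to 34.9 CPM in the KO groups. WT and KO mice overlapped in every condition. Averaged over the 5 conditions, Cnih3 was lower in KO by a log2 fold change of -0.34 (SE 0.079, 95% interval -0.50 to -0.18, limma FDR = 0.00692). The counts cover all exons, and reads outside exon 4 are still counted in KO mice, so a gene-level count cannot show the loss of the exon. Without quality weights the FDR was 0.0687.

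The next question was whether loss of Cnih3 changed the RNA of its partners. None of the 10 genes was differentially expressed (FDR under 0.05) between KO and WT over all conditions, where 3.4% of all tested genes were called. By edgeR and by DESeq2 the count was also 0, given without the share of all genes. The member median was -0.004 on the log2 scale, against -0.003 for all genes. At an unadjusted p under 0.05 there was 1 member, a count given without the share of all genes. It was the TARP Cacng3, with a log2 fold change of -0.09 (95% interval -0.16 to -0.01, limma FDR = 0.20). For Gria2 the log2 fold change was 0.00 (95% interval -0.12 to 0.12), for Gria1 0.05 (-0.04 to 0.14) and for Gria3 0.03 (-0.06 to 0.13). Gria4, which adds a subunit used mainly by interneurons in the adult hippocampus, had 0.09 (-0.04 to 0.21). Cnih2, the closest relative of Cnih3 in this list, had -0.13 (-0.26 to 0.01, limma FDR = 0.351), so that the interval ended just above 0. The widest interval was that of Cacng8, from -0.30 to 0.11.

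**Figure D3:**
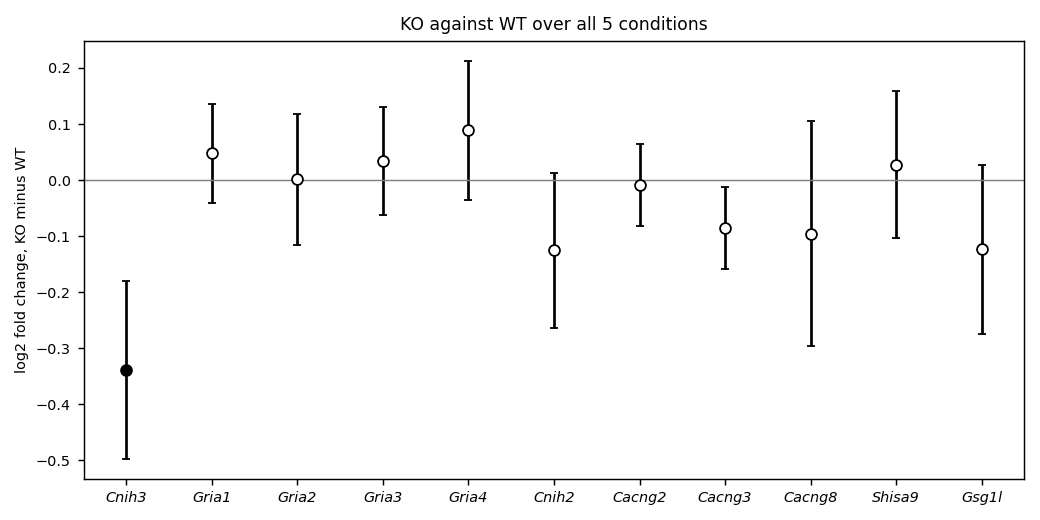
Log2 fold change of KO over WT averaged over the 5 conditions (points) with 95% intervals (bars) for Cnih3 and the 10 partner genes; the filled point marks an FDR under 0.05. Cnih3 is the only filled point, at -0.34, and the intervals of all partners but Cacng3 cross 0.

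Within single conditions 0 of the 10 genes were called between KO and WT in any of the 5, where 0 to 0.315% of all genes were. Members at an unadjusted p under 0.05 numbered 1 each in metestrus, proestrus and estrus and 0 in males and diestrus, and edgeR and DESeq2 called 0 in each condition. The shares of all genes for these counts are not given, so they are no result about the members. Gria2 was called in diestrus, lower in KO by a log2 fold change of -0.42 to -0.43 (limma FDR = 0.0210 to 0.0319), when any 1 of WT diestrus replicates 3, 4 and 5 was left out. Cnih2 illustrates the spread behind these comparisons. In metestrus its levels were 119.4, 96.5, 80.2 and 124.0 CPM in WT mice and 78.1, 64.6, 90.3, 103.5 and 98.6 CPM in KO mice, and the groups overlapped. The interaction of genotype with condition passed for none of the 10 by limma, edgeR or DESeq2 (smallest limma FDR 0.884, for Gsg1l). The comparison of all KO with all WT mice also mixed 2 kinds of parents. Among the 39 mice from matings within the Cnih3 line, Cnih2 was lower in KO by -0.40 (limma FDR = 0.00565), where 15.1% of all genes tested were called. That fit has 1 WT mouse each in metestrus, proestrus and estrus, whose spread is assumed to equal that of the other groups. The part of parentage in the result was not tested.

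Expression across the cycle gave larger differences, and they centred on diestrus. In WT mice 6 of the 10 genes were differentially expressed between diestrus and estrus, all lower in diestrus. Of all tested genes 22.1% were called in this comparison and 13.1% were lower in diestrus. The same 6 genes, Gria1 to Gria4, Cacng8 and Shisa9, were lower in KO diestrus than in KO estrus, where 30.7% of all genes were called and 19.3% were lower. The median log2 fold change of the members was -0.43 in WT and -0.38 in KO, against -0.01 over all genes in both. Cnih2, Cacng2, Cacng3 and Gsg1l passed in neither genotype. Exonic length, counted over all annotated exons of a gene, moved with these values over all genes. Over 4 bins of equal gene number, from the shortest to the longest by exonic length, the median log2 fold change went from 0.12 to -0.16 in WT and from 0.15 to -0.15 in KO, and 25.5% and 32.4% of the longest bin were called lower. The longest bin starts at 6.45 kb and holds Gria2 (15.5 kb) and Gria3 (9.86 kb). Gria1 (6.04 kb), Gria4 (6.3 kb) and Shisa9 (5.24 kb) lie in the next bin, from 4.03 to 6.45 kb. Its medians were -0.04 in WT and -0.06 in KO, and 13.3% and 20.7% of its genes were called lower. Cacng8 has 2.35 kb. Of the 4 genes that did not pass, Cacng2 has 5.51 kb, Gsg1l 3.92 kb, Cacng3 2.78 kb and Cnih2 1.37 kb. In KO diestrus against KO males the medians of the shortest and longest bins were 0.06 and -0.00468. The part of length in the result was not tested.

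Gria2 encodes the subunit that, once its RNA is edited, makes the channel impermeable to calcium. In WT diestrus mice its levels ran from 314.9 CPM through a median of 473.7 to 701.0 CPM, and in WT estrus mice from 641.6 through 668.4 to 745.4 CPM. Diestrus mice under 14 weeks had 314.9, 346.0 and 316.3 CPM and lay below every estrus mouse, whereas the 3 older ones, at 601.5, 678.1 and 701.0 CPM, fell among or just under them. The log2 fold change was -0.70 (SE 0.13, 95% interval -0.95 to -0.44, limma FDR = 0.000476), or 0.618 times the estrus level. In KO mice Gria2 ran from 348.4 through 428.7 to 729.8 CPM in diestrus and from 520.8 through 673.4 to 747.5 CPM in estrus. The 4 young KO diestrus mice had 348.4 to 450.0 CPM, below every estrus mouse, and both older ones, at 612.4 and 729.8 CPM, lay inside the estrus range. The change was -0.64 (SE 0.12, limma FDR = 0.000106).

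Gria1, which supplies the most abundant subunit of CA1 synapses, followed the same order with a smaller difference. Its levels in WT diestrus were 426.1 to 739.3 CPM with a median of 545.4, and in WT estrus 635.8 to 753.3 CPM with a median of 689.5. The ranges overlapped through the older diestrus mice alone, since the 3 young ones had at most 476.2 CPM. The log2 fold change was -0.40 (SE 0.096, limma FDR = 0.00334) in WT and -0.37 (SE 0.091, limma FDR = 0.00230) in KO.

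Gria3 encodes a subunit that pairs with GluA2 in pyramidal cells. It ran from 62.9 through 87.2 to 122.5 CPM in WT diestrus and from 113.9 through 117.1 to 136.1 CPM in WT estrus. In KO it ran from 74.0 through 85.1 to 126.4 CPM in diestrus and from 96.7 through 122.8 to 146.6 CPM in estrus. All 7 young diestrus mice lay below all estrus mice of their genotype, and of the older ones WT replicates 1 and 2 and both KO mice lay inside the estrus range. The changes were -0.59 in WT (SE 0.10, limma FDR = 0.000451) and -0.54 in KO (SE 0.099, limma FDR = 8.2e-05).

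Gria4 was the least abundant subunit per length. WT diestrus mice had 6.48 to 12.7 CPM with a median of 9.02, and WT estrus mice 11.7 to 14.1 CPM with a median of 12.3. The log2 fold change was -0.63 (SE 0.14, limma FDR = 0.00179) in WT and -0.60 (SE 0.13, limma FDR = 0.000436) in KO. The 3 young WT diestrus mice, with at most 7.06 CPM, again lay below all estrus mice, and 2 of the 3 older ones were also under the estrus range.

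Among the auxiliary proteins, Cacng8 and Shisa9 moved with the subunits. Cacng8 encodes a TARP, here the lowest per length of the 3 among the members (4.59 CPM per kb, against 8.80 for Cacng2 and 40.9 for Cacng3). WT diestrus mice had 13.3, 9.78 and 9.39 CPM at 14 weeks or more and 5.36, 5.14 and 4.95 CPM under 14 weeks, and WT estrus mice ran from 8.04 through 10.8 to 13.7 CPM. The young mice lay below the estrus range and the older ones inside it. The log2 fold change was -0.63 (SE 0.23, limma FDR = 0.0422) in WT and -0.69 (SE 0.21, limma FDR = 0.0132) in KO. In KO 1 older diestrus mouse, at 6.27 CPM, was as low as the young ones. Young KO diestrus mice had 4.39 to 8.00 CPM and overlapped KO estrus mice, at 6.66 to 13.2 CPM. Shisa9, which slows recovery of the receptor from desensitization and is prominent in the dentate gyrus, was at 19.6, 17.0 and 15.6 CPM in older and 11.4, 11.4 and 11.3 CPM in young WT diestrus mice, against 15.4 to 20.1 CPM in WT estrus. The young WT mice again lay below the estrus range and the older ones inside it. In KO the young diestrus mice, at 11.2 to 17.0 CPM, lay inside the estrus range of 10.2 to 22.9 CPM. The changes of Shisa9 were -0.46 in WT (SE 0.15, limma FDR = 0.0193) and -0.39 in KO (SE 0.13, limma FDR = 0.0237).

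The remaining 4 auxiliary genes gave small values with intervals that show how far they could have moved. Cnih2, the cornichon that pyramidal cells express alongside Cnih3, had a log2 fold change of -0.07 in WT (95% interval -0.37 to 0.23) and -0.05 in KO (-0.33 to 0.24). The TARP Cacng2, also known as stargazin, had -0.08 (-0.24 to 0.08) and 0.01 (-0.14 to 0.16). Cacng3 was the only member above 0 in both genotypes, with 0.09 (-0.07 to 0.25) and 0.16 (0.01 to 0.31, limma FDR = 0.0963). Gsg1l, whose protein dampens AMPA receptor currents, had -0.25 (-0.58 to 0.07) and -0.06 (-0.37 to 0.24).

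**Figure D4:**
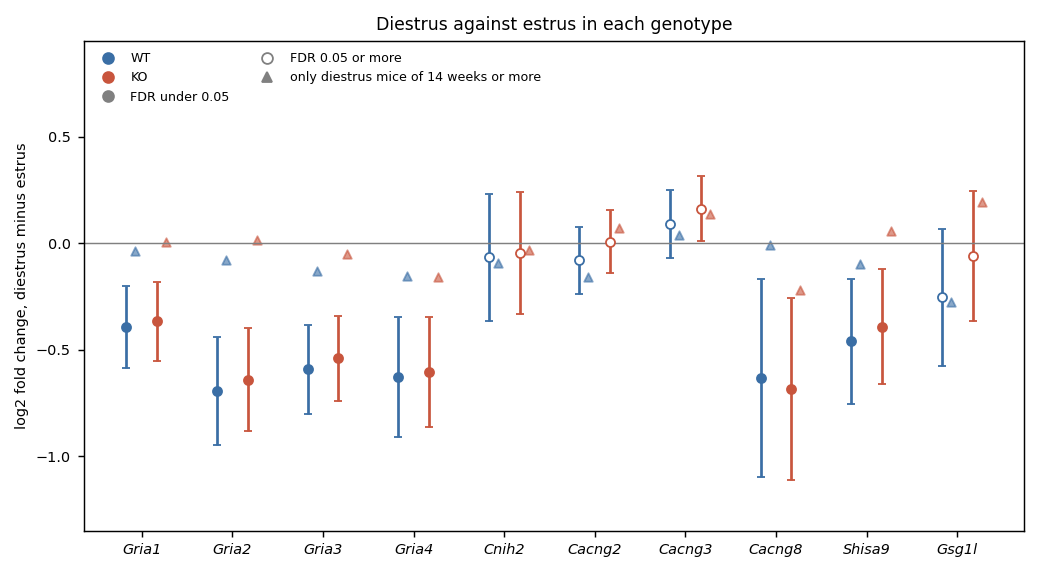
Log2 fold change of diestrus over estrus (circles) with 95% intervals (bars) for the 10 genes in WT (blue) and KO (red); filled circles mark an FDR under 0.05 and triangles give the value when only diestrus mice of 14 weeks or more are used. The 6 genes that were called in both genotypes lie between -0.37 and -0.70, and the triangles of the same genes lie between -0.22 and 0.06.

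The calls were lost without the 7 young mice. Among the mice compared with diestrus, 0 WT estrus mice, 1 KO estrus mouse and 0 KO males were under 14 weeks. Young age and stage therefore cannot be told apart in those comparisons. The older diestrus mice are few and have low weights, so a lost call does not show that a change is absent. With only diestrus mice of 14 weeks or more (3 WT, 2 KO), 0 of the 10 genes were called against estrus in either genotype, and 0 of 16080 genes were called at all. Gria2 then stood at -0.08 in WT (limma FDR = 0.851) and 0.01 in KO, Gria3 at -0.13 and -0.05, and Gria4 at -0.15 and -0.16. With only young diestrus mice the same 6 genes were called in each genotype, and Gria2 stood at -1.05 in WT and -0.72 in KO. The share of all genes called in that fit is not given, so the count is no result about the members. Leaving out any 1 of WT diestrus replicates 3, 4 and 5 brought the WT count to 0, with Gria2 at -0.26 at the closest to 0. Age as a covariate in weeks left 4 calls in WT and 5 in KO, again counts without the share of all genes. By test, edgeR called 0 in both genotypes, DESeq2 1 (Gria3) in WT and 0 in KO, and voom without quality weights 3 (Gria2, Gria3 and Gria4) in WT and 0 in KO. The shares of all genes called by these tests are not given, so these counts are no result about the members.

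The difference between genotypes in the diestrus to estrus change was not detectable. For Gria2 the change in KO minus that in WT was 0.05 with a 95% interval of -0.30 to 0.40. None of the 10 genes had an FDR under 0.05 in this interaction by limma, edgeR or DESeq2, none had an unadjusted p under 0.05 by limma, and the same held for the change from males to diestrus. An interaction FDR is adjusted over all tested genes, of which 0 passed in each by limma. The share of all genes at an unadjusted p under 0.05 is not given.

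Diestrus was also compared with males and with the other stages, which reuses the same diestrus mice, so these comparisons are not independent of those above. Against KO males 5 of the 10 genes were lower in KO diestrus (28.7% of all genes called, 18.0% lower). KO males had 471.4 to 677.8 CPM of Gria2 with a median of 568.3, above all 4 young KO diestrus mice and below both older ones in the median. The log2 fold changes were -0.27 for Gria1, -0.49 for Gria2, -0.39 for Gria3, -0.59 for Gria4 and -0.83 for Cacng8. With only older diestrus mice none of the 10 passed and Gria1, Gria2 and Gria3 turned to 0.09, 0.15 and 0.08. In WT mice 0 of the 10 passed against males, where 0.068% of all genes were called. By limma 6 members had an unadjusted p under 0.05, a count given without the share of all genes. The member median was -0.32, and the medians of all genes in the shortest and longest bins of exonic length were 0.09 and -0.10. Gria2 in WT males was 413.7, 681.3, 521.1, 625.7 and 686.9 CPM, so WT males and WT diestrus mice overlapped. By edgeR and DESeq2 the WT count was also 0. With only young diestrus mice the WT count was 6. Without any 1 of older WT diestrus replicates 1, 2 and 6 or WT male replicates 1 to 3 it was 5 or 6. The share of all genes called in these fits is not given, so these counts are no result about the members.

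Against proestrus 1 member was lower in WT diestrus (9.66% of genes called, 7.0% lower) and 6 in KO diestrus (34.3% and 19.4%). The WT gene was Cacng8, with 9.46, 11.6, 12.1, 14.7 and 14.7 CPM in proestrus and a log2 fold change of -0.84 (SE 0.26, limma FDR = 0.0297). All 5 proestrus mice lay above the 3 young diestrus mice, and the 3 older ones lay inside or just under the proestrus range. In KO the 6 were Gria2 (-0.53), Gria3 (-0.40), Gria4 (-0.54), Cnih2 (-0.50), Cacng8 (-0.57) and Shisa9 (-0.45). Without the young diestrus mice 0 were called in both genotypes. Against metestrus 3 members were called in each genotype, Gria2, Gria3 and Gria4. In WT, where 7.24% of genes were called and 5.59% were higher in metestrus, they were higher in metestrus by 0.62, 0.52 and 0.49. In KO, with 10.4% called and 8.2% higher, the values were 0.52, 0.37 and 0.44. WT metestrus mice had Gria2 at 691.6, 604.4, 746.9 and 622.9 CPM, all above the 3 young diestrus mice and level with the 3 older ones. With only mice of 14 weeks or more the WT value of Gria2 was -0.01.

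2 further calls did not involve diestrus. Cnih2 was lower in KO metestrus than in KO proestrus by -0.59 (SE 0.16, limma FDR = 0.0310), the single member in a comparison that called 4.37% of genes and 1.5% as lower. Proestrus mice had 132.8, 130.3, 113.5 and 187.7 CPM against 64.6 to 103.5 CPM in metestrus, without overlap, and 3 of the 4 proestrus mice were under 14 weeks. The Cnih2 difference between diestrus and proestrus in KO kept its size without young diestrus mice, at -0.50, but did not pass (limma FDR = 0.757). Gria3 was lower in WT proestrus than in WT estrus by -0.36 (SE 0.099, limma FDR = 0.0190), where 6.82% of genes were called and 1.56% as lower. Its proestrus levels were 96.0, 93.9, 93.4, 99.2 and 105.5 CPM, all below the lowest estrus mouse at 113.9 CPM. Neither call was made by edgeR, DESeq2 or voom without weights. In the other 10 pairs of conditions within a genotype 0 members passed, and between 0 and 7.66% of all genes did.

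Genes that act on the AMPA receptor around these members were counted from a list of 32, of which 30 were tested. In KO against WT over all conditions 2 of the 30 were called, both higher in KO, where 3.4% of all tested genes were called. They were Cpt1c, an endoplasmic reticulum protein that aids receptor assembly and export, at 0.16 (SE 0.048, limma FDR = 0.0431) and Olfm2, a secreted receptor interactor, at 0.20 (SE 0.060, limma FDR = 0.0412). Neither passed with edgeR, DESeq2 or without quality weights. Among mice from matings within the Cnih3 line 6 were called, Cpt1c (0.25) and Sacm1l (0.82) higher in KO and Cacng4 (-0.36), Prrt1 (-0.34), Abhd12 (-0.34) and Olfm1 (-0.31) lower, where 15.1% of all genes were called, and Olfm2 did not pass (limma FDR = 0.0550). Between diestrus and estrus 9 of the 30 were called in WT, all lower in diestrus, beside 22.1% of all genes called and 13.1% lower. They were the auxiliary protein Shisa7 (-0.76), the neuronal pentraxins Nptx1 (-0.66) and Nptx2 (-0.78) and their receptor Nptxr (-0.47), the postsynaptic adhesion proteins Lrrtm2 (-0.44) and Lrrtm4 (-0.66), and Porcn (-0.53), Abhd6 (-0.23) and Abhd12 (-0.40) of the assembly and export group. In KO 15 were called, 13 lower and 2 higher, beside 30.7% of all genes called and 19.3% lower. The 2 higher genes were Nsf (0.28), an ATPase of receptor trafficking, and Syndig1 (0.26). With only diestrus mice of 14 weeks or more 0 of the 30 passed against estrus in either genotype. By edgeR 0 of the 30 were called in both genotypes, and by DESeq2 0 in WT and 1 in KO, counts given without the share of all genes.

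The transcript table gave a second view of Gria2. It holds estimated counts of 109383 transcripts, and only part of the transcripts of the other subunits was analysed here (3 of Gria1, 8 of Gria3 and 2 of Gria4, mostly minor). Library totals in this table were 7722831 to 19590436. Of 29926 tested transcripts 12 belonged to the 4 subunits, 6 of them to Gria2. In WT diestrus against estrus 4 transcripts were called, all of Gria2 and all lower in diestrus (4.51% of all transcripts called). In KO 3 were called, also of Gria2 (6.43%).

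The flop transcript Gria2-201 ran from 166.9 through 244.9 to 323.9 CPM in WT diestrus and from 327.2 through 342.0 to 368.0 CPM in WT estrus. Even the older WT diestrus mice thus stayed under the WT estrus range. In KO the older diestrus mice, at 366.4 and 314.8 CPM, lay inside the estrus range of 257.8 to 388.5 CPM. The log2 fold change of Gria2-201 was -0.63 (SE 0.13, limma FDR = 0.00667) in WT and -0.63 (SE 0.13, limma FDR = 0.00329) in KO. The flip transcript Gria2-202 ran from 242.1 through 347.8 to 511.5 CPM in WT diestrus and from 444.0 through 488.1 to 538.4 CPM in WT estrus, with a change of -0.58 (SE 0.14, limma FDR = 0.0153). In KO its change was -0.40 and did not pass (limma FDR = 0.0589). Flop was also lower in KO diestrus than in KO males, at -0.44 (5.07% of transcripts called), and than in KO proestrus, at -0.56 (10.6%), and it was higher in WT metestrus than in diestrus, at 0.56 (0.515%). The share of flip in the summed estimated counts of flip and flop had group means from 57.5% to 61.5%. Counts are not scaled by length, and Gria2-201 has 10371 bases against 4026 for Gria2-202, so this is not the share of RNA molecules. Assignment of reads to flip or flop rests on the 36 differing bases shown above and on the different last exons.

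The lowest fold changes among Gria2 transcripts were those of 2 retained-intron forms. Gria2-206 ran from 9.14 through 37.8 to 89.5 CPM in WT diestrus and from 52.8 through 65.8 to 97.7 CPM in WT estrus. Young WT diestrus mice had 16.1, 9.14 and 15.1 CPM, below every estrus mouse, and older ones 89.5, 83.4 and 59.6 CPM, inside the estrus range. The log2 fold change was -1.43 (SE 0.33, limma FDR = 0.0142) in WT, -1.47 (SE 0.31, limma FDR = 0.00445) in KO and -1.08 in KO diestrus against proestrus. Gria2-204, another retained-intron form, had -1.31 in WT and -1.27 in KO. As a share of the estimated counts of all Gria2 transcripts, Gria2-206 made up 1.87% to 3.58% in young and 7.26% to 9.75% in older WT diestrus mice. In KO it made up 2.05% to 5.28% in young and 7.57% to 8.36% in older diestrus mice. Within diestrus the groups by age did not overlap, and the share of all transcripts so separated is not given. Outside diestrus low shares were also found in old mice. WT male replicate 2 (23.71 weeks) had 2.41% and KO metestrus replicate 5 (22.57 weeks) 4.64%. The highest share was 11.29% in KO metestrus replicate 2, at 13.57 weeks. A test of unequal change among the transcripts of a gene (diffSplice) passed for Gria2 in KO diestrus against estrus (limma FDR = 0.0417, where 6.47% of 7251 genes were called) and not in WT (limma FDR = 0.158). Without quality weights neither the transcript calls nor the use call remained, and edgeR on rounded counts called no transcript.

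**Figure D5:**
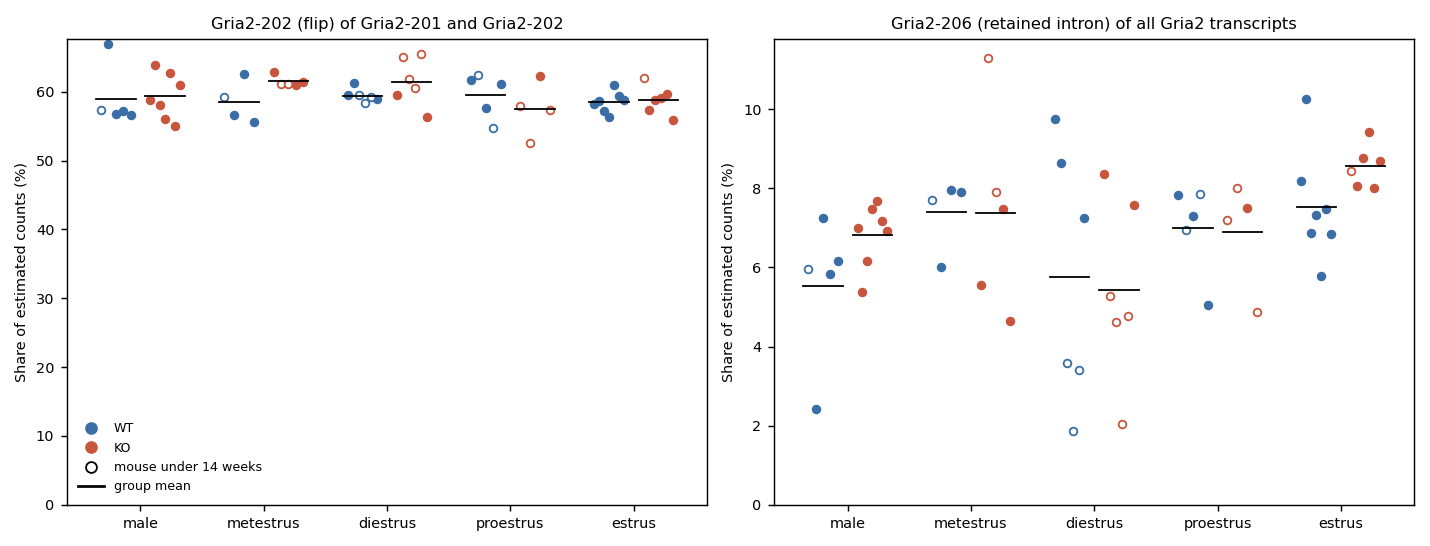
Share of flip transcript Gria2-202 in the sum of Gria2-201 and Gria2-202 (left) and share of retained-intron transcript Gria2-206 in all Gria2 transcripts (right), in percent of estimated counts, for each mouse by condition with WT in blue, KO in red, open circles under 14 weeks and bars for group means. Flip stays between 52.6% and 66.9%, and the young diestrus mice have 1.87% to 5.28% of Gria2-206 against 7.26% to 9.75% in the older ones.

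Over single libraries, with group means removed, the subunits had higher correlations with one another than with the auxiliary genes, a description with no test. The correlation of log2 CPM over 55 libraries was 0.953 for Gria2 and Gria3, 0.934 for Gria1 and Gria3, 0.933 for Gria1 and Gria2 and 0.743 to 0.805 for Gria4 with the others. Shisa9 reached 0.619 to 0.666 with the 4 subunits and Cacng8 0.420 to 0.462. Cnih2 lay between -0.22 and 0.157 and Cacng3 between 0.00246 and 0.149 with them. Cnih2 and Cacng2 had 0.819 with each other. Outside the members, the genes most like Gria2 were Slc1a1, a neuronal glutamate transporter, with 0.953 and Nrcam, a neuronal adhesion molecule, with 0.952, and the same 2 led for Gria3 with 0.939 and 0.95. For Gria1 they were Clstn3 with 0.939 and Atp6v0a1 with 0.933, and for Gria4 Dpp6 with 0.825 and Dgke with 0.815. These values describe libraries that share depth and composition, and the 7 young diestrus mice are among them.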

How the data were processed

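Dorsal hippocampus libraries of 55 mice were made from poly-A RNA by SMARTer amplification and sequenced in paired ends. The authors aligned reads to GRCm38 with STAR 2.7.9a and counted them per gene with featureCounts 2.0.3, and the deposited gene counts were used as they stand. Transcript values are estimated counts, which the authors made with Salmon 1.5.2 and which voom took unrounded. The authors' deposited log2 CPM values, made with edgeR and limma, served as a check only: values recomputed here differed by at most 5e-14 over 16164 genes. This check covers the normalization and not the fitted comparisons or the genes called. The gene table had 55774 lines, of which 287 repeated a gene. Another 5 ribosomal RNA genes were left out, and 1 column of no listed sample was not used. Counts were scaled by TMM and fitted in R 4.3.3 with limma 3.58.1 (voomWithQualityWeights, 1 mean for each of 10 groups, Benjamini-Hochberg FDR over all tested genes, threshold 0.05). Alternatives were edgeR 4.0.16, DESeq2 1.42.0, DESeq2 size factors, no quality weights, no low-count filter, age as covariate, subsets by age or parents, and each mouse left out. Groups and ages follow the labels and parents the study's supplement. Members, partner lists, markers and the age split of 14 weeks were chosen with earlier results of these data known, and named genes are the members, Cnih3, called partners and the 2 genes most correlated with each subunit. Each mouse gave 1 library, so p-values measure the spread between mice. Exon sequences came from GENCODE M21.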

Additional observations from a re-analysis of the deposited data

Results flagged for a closer look

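In 10 of the 130 groups of values tested, a single mouse lay far from the rest of its group by Dixon's criterion, which chance meets in about 5% of groups. For Cacng2 these were KO proestrus replicate 4, at 59.12 CPM against 50.33 to 51.08 in the others, and WT estrus replicate 3, at 60.09 CPM against 48.27 to 51.68. For Cacng8 it was KO male replicate 1, at 8.527 CPM against 10.76 to 12.6, and for Cnih2 WT male replicate 2, at 68.96 CPM against 116.4 to 142.1. Gria1 was low in KO estrus replicate 5, at 546.3 CPM against 696.5 to 788.0. Gria3 was low in KO metestrus replicate 5, at 100.4 CPM against 108.4 to 110.9, and Shisa9 in WT proestrus replicate 2, at 11.28 CPM against 14.87 to 15.82. The share of Gria2-202 was 62.92% in KO metestrus replicate 1 against 60.97% to 61.36%, and 66.89% in WT male replicate 2 against 56.64% to 57.4%. The share of Gria2-206 was 6.004% in WT metestrus replicate 2 against 7.707% to 7.965%. None of the 7 young diestrus mice was among these.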

How the results depend on the processing

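Counts of the 10 genes called moved with the model and with age. The shares of all genes called are not given here or for the fits with single mice left out. These counts therefore describe the fits and are no result about the members. Under edgeR, DESeq2 and voom without weights they were 1, 2 and 2 for KO diestrus against males (5 in the report), 0, 1 and 3 for WT diestrus against estrus (6), 0, 0 and 0 for KO diestrus against estrus (6), 0, 0 and 0 for WT diestrus against proestrus (1), 0, 1 and 0 for KO diestrus against proestrus (6), and 0 in each for the other WT and other KO pairs (4 and 4). Without the low-count filter the counts against proestrus were 0 in WT and 3 in KO, and 2 and 0 in the other WT and KO pairs. With age as covariate they were 2 for KO diestrus against males, 0 for WT diestrus against proestrus and 1 each in the other pairs. With only mice of 14 weeks or more, which leaves 1 KO proestrus mouse assumed to vary like the rest, they were 0 in every diestrus comparison and in the other KO pairs. With only older diestrus mice they were also 0. With only young diestrus mice they were 6 for WT diestrus against males and 6 against proestrus, and with only mice from matings within the Cnih3 line 6 for WT diestrus against males and 1 (Cnih2) for KO against WT. Transcript calls (11) fell to 0 without weights and to 0 with edgeR on rounded counts, and the use call (1) to 0 without weights, and rose to 3 with a filter of 0.1 CPM.

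The diestrus changes of 13 gene comparisons took the opposite sign in older mice. With only mice of 14 weeks or more and with only older diestrus mice, KO diestrus minus males was 0.1045 and 0.08687 for Gria1, 0.1717 and 0.1538 for Gria2, and 0.1008 and 0.08289 for Gria3. KO diestrus minus estrus was 0.008807 and 0.004927 for Gria1, 0.01003 and 0.01321 for Gria2, and 0.004648 and 0.05652 for Shisa9. KO diestrus minus proestrus was 0.03859 and 0.1145 for Gria2 and 0.03097 and 0.0728 for Gria3, and with only mice of 14 weeks or more 0.2352 for Cacng8 and 0.04489 for Shisa9. Metestrus minus diestrus with only these mice was -0.009788 for Gria2 in WT, and -0.1622 for Gria2 and -0.1383 for Gria3 in KO. None of these passed the threshold.

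Leaving out single mice gave 0 to 6 calls for WT diestrus against males, 0 to 6 against estrus (0 without WT diestrus replicate 3, 4 or 5), 0 to 6 against proestrus (6 without WT diestrus replicate 1, 2 or 6, and 0 without 3, 4 or 5 or WT proestrus replicate 3 or 4), and 1 to 7 in the other WT pairs (7 without WT diestrus replicate 1, 2 or 6, and 1 without 3, 4 or 5). For KO diestrus the ranges were 4 to 7 against estrus, 4 to 6 against males and 4 to 7 against proestrus, and 2 to 5 in the other KO pairs (2 without KO metestrus replicate 1 or KO diestrus replicate 2, 3 or 5). They were 0 to 1 for KO against WT within conditions, 6 to 21 for transcripts and 0 to 2 for transcript use (0 without KO estrus replicate 2, 3, 4 or 6 or KO diestrus replicate 2, 3, 4 or 5, and 2 without KO proestrus replicate 1 or WT diestrus replicate 1, 2 or 6). Of 1815 single-gene values with a mouse left out, 1730 kept direction and call and 85 lost the call, and none changed sign. Of the 33 gene comparisons called, 31 lost the call with edgeR, 28 with DESeq2, 28 without weights, 14 with age as covariate, 14 without the filter and 1 with DESeq2 size factors, all in the same direction. With only young diestrus mice 24 of 24 kept it. Where no value above shows it, the cause was not tested. Depth was not low for any member, with at least 199 counts per library. No paired analysis was possible because the replicate numbers only name mice and the labels pair none.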

Other observations

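Cnih2 and Cacng2, which passed in neither diestrus to estrus comparison, had a correlation of 0.819 with each other over the 55 libraries with group means removed, while Cacng3 had -0.507 with Cacng8, -0.32 with Cnih2 and -0.308 with Cacng2. These are descriptions over libraries that share depth and composition. Other AMPA receptor genes also differed between KO diestrus and KO males, where 14 of the 30 tested partners were called, 13 lower and 1 higher in diestrus, beside 28.7% of all genes called and 18.0% lower. Porcn, which encodes an endoplasmic reticulum protein found in receptor assembly complexes, was lower by -0.79 (limma FDR = 7.23e-08), and Nsf was higher by 0.27. By edgeR 1 partner was called and by DESeq2 2, and with only older diestrus mice 0, counts given without the share of all genes. In WT 0 of the 30 passed by limma, edgeR or DESeq2, where limma called 0.068% of all genes. By limma 7 had an unadjusted p under 0.05, a count given without the share of all genes.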
